A study of Arabidopsis thaliana with 6 samples.

Results

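Transcript levels of PYE and AT3G13610, a pair of Arabidopsis thaliana genes of the iron deficiency response, were compared between seedlings grown with and without scutellarin. They were picked by name from the table of probe sets (sets of short probes that read 1 transcript) on the Affymetrix ATH1 array, and each was read by 1 probe set, so 2 of the 13286 genes that could be named are described. Both were chosen with this same comparison already known, because PYE was lower and AT3G13610 higher with scutellarin. Their own differences are therefore given as descriptions, with no test. AT3G13610 is also called F6'H1.

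Each of the 6 samples was the total RNA of 100 whole seedlings of the Columbia background, 10 days old. The 3 mock samples grew on filter paper wetted with 1% DMSO, and the 3 scutellarin samples on filter paper with 100 µM scutellarin, a plant flavone glucuronide, in 1% DMSO. Treatment lasted 10 days in both groups. All were held for 2 days at 4 °C in the dark and then grown at 25 °C with 12 h of light a day. Per the labels the samples of a group came from independent experiments, and no iron treatment is named for either group. Values are MAS5 intensities on a linear scale with a floor at 1. The median intensity of an array lay between 144.8 and 162.3, and log2 intensities gave a Pearson's r, across all 22746 probe sets, of 0.926 to 0.935 between arrays of the same group and of 0.900 to 0.912 between mock and scutellarin arrays.

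Plants short of iron switch on a network of basic helix-loop-helix (bHLH) transcription factors, in which PYE (POPEYE) acts as a repressor of genes for moving and storing iron and can pair with relatives such as ILR3. Roots of dicots short of iron acidify the soil, reduce ferric iron and secrete coumarins, phenolic compounds that mobilise iron. AT3G13610 encodes feruloyl-CoA 6'-hydroxylase, a 2-oxoglutarate-dependent dioxygenase that takes feruloyl-CoA from the phenylpropanoid pathway towards scopoletin and the other coumarins, mainly in roots. In iron-deficient roots both genes are known to be induced.

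PYE was lower with scutellarin. In the mock, replicates 1 to 3 had intensities of 258.5, 331.2 and 295.5, against 207.1, 164.2 and 198.0 for the same numbers with scutellarin. Every scutellarin array lay below every mock array, as in 18.6% of the probe sets kept in the fit. The gap between the nearest arrays of the groups was 0.32 on the log2 scale, about as wide as the range within the mock (0.36) or the scutellarin arrays (0.33). The group means were 295.1 ± 36.4 and 189.8 ± 22.6 (SD, n = 3). The log2 difference, scutellarin minus mock, was -0.64 ± 0.19 (SE), or 1.55-fold lower. Of the 15923 probe sets kept in the fit, 8.94% had a more negative difference.

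AT3G13610 was higher with scutellarin. In the mock, replicates 1 to 3 read 1384, 1445 and 1146, and with scutellarin they read 2856, 2225 and 3252. Every scutellarin array lay above every mock array, as in 18.6% of the kept probe sets. The gap was 0.62 on the log2 scale, and scutellarin replicate 2 was the nearest to the mock arrays. The group means were 1325 ± 158 and 2778 ± 518 (SD, n = 3). The log2 difference was 1.06 ± 0.16 (SE), or 2.08-fold higher, and 5.24% of the kept probe sets had a more positive one.

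**Figure D1:**
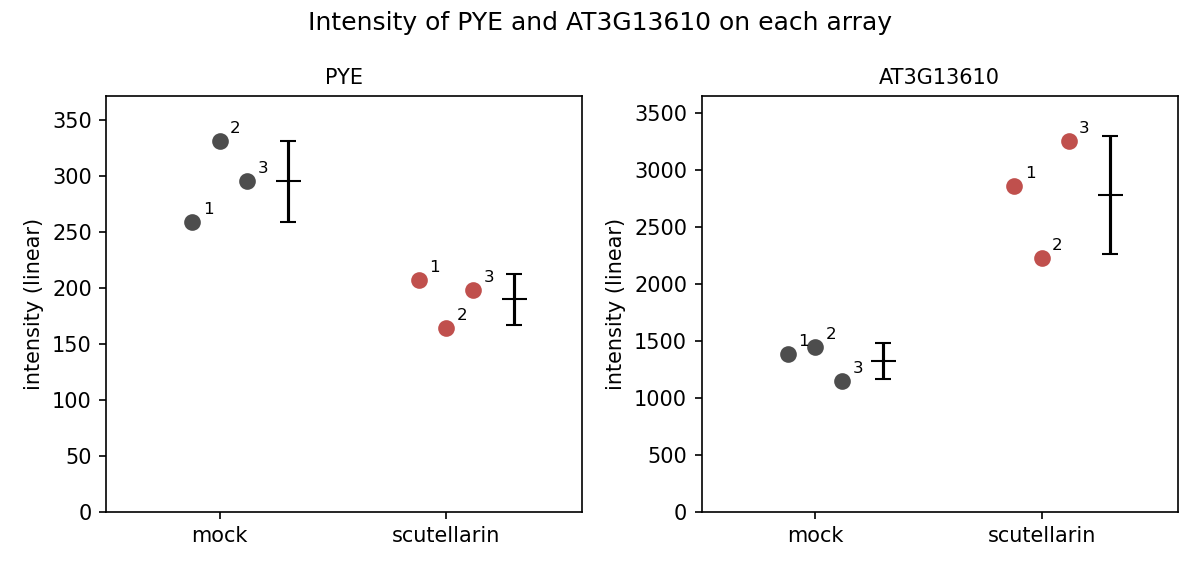
Intensity (linear scale) of PYE and AT3G13610 on each array, with the replicate number beside each point and the mean ± SD of 3 arrays beside each group. The scutellarin arrays of PYE lie between 164.2 and 207.1, all below the mock arrays, and those of AT3G13610 lie between 2225 and 3252, all above the mock arrays.

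The spread between replicates differed between the genes. The residual SD on the log2 scale was 0.18 for PYE, where the 1000 kept probe sets nearest to it in mean level had a median of 0.23, and 0.23 for AT3G13610, where the median of its 1000 neighbours was 0.16. Scutellarin replicate 2 was the lowest scutellarin array for both genes. Leaving out each array in turn moved the log2 difference of PYE between -0.73 and -0.54 and that of AT3G13610 between 0.94 and 1.21. Across the 9 alternatives that used all arrays the ranges were -0.67 to -0.56 and 1.03 to 1.06, and the direction was the same in all 16 settings for both genes.

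**Figure D2:**
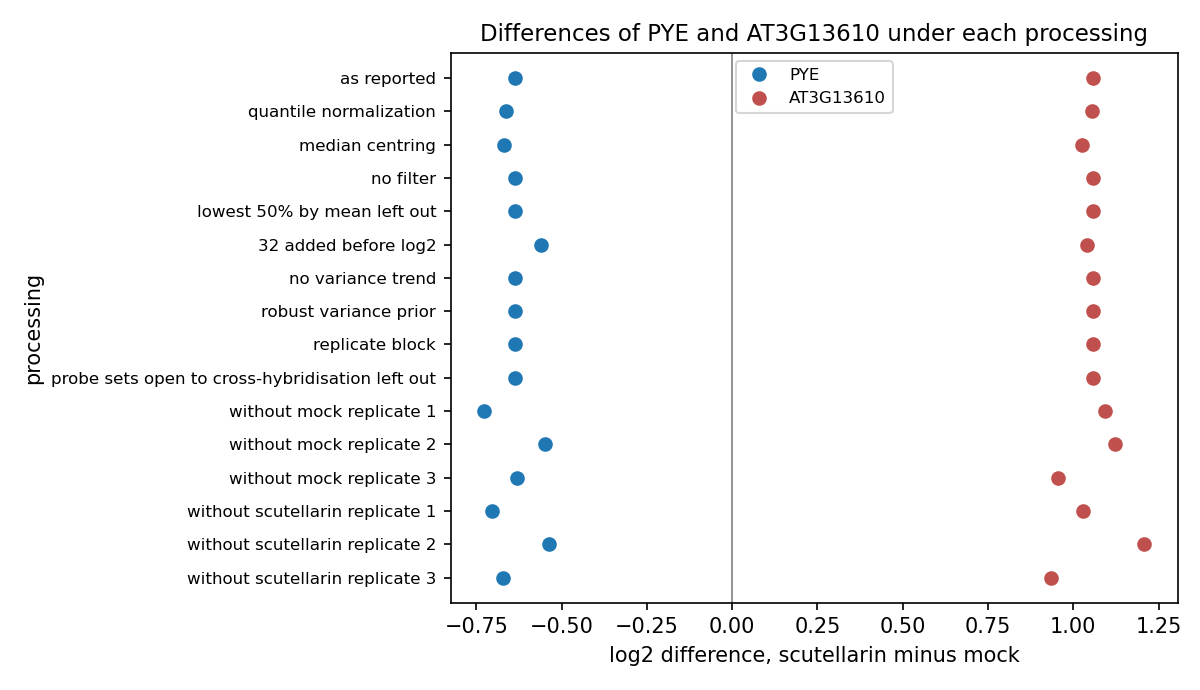
Log2 difference (scutellarin minus mock, horizontal axis) of PYE and AT3G13610 as reported and under each of the 15 alternatives (vertical axis). PYE stays between -0.73 and -0.54 and AT3G13610 between 0.94 and 1.21, and no point crosses 0.

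Other genes were tested with limma over all 15923 kept probe sets (two-sided, Benjamini-Hochberg adjustment), and a gene is said to have risen or fallen at an adjusted p under 0.05. In that fit 19.4% of the probe sets changed: 10.3% rose and 9.11% fell. The median log2 difference over all of them was -0.04. In 37.1% the groups did not overlap.

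Among the regulators of the iron response, AT1G74770 rose, BHLH101, read below the filter on low values, was higher in every scutellarin array, and the bHLH factors that activate PYE or pair with it missed the threshold. Of the 20 regulators listed, 10 had a named probe set and 8 passed the filter. Besides PYE, 1 of 7 rose and none fell, while 6 missed the threshold; the median log2 difference of the 7 was -0.06. In 3 of the 7 the groups did not overlap. Over all kept probe sets 10.3% rose, and in 37.1% the groups did not overlap.

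The bHLH factors ILR3, bHLH104, bHLH115 and bHLH34 form the group that activates iron deficiency genes, PYE included. ILR3 had an intensity of 2403, 2556 and 2793 in the mock and 3243, 2435 and 2650 in the scutellarin arrays, which overlapped. Its log2 difference was 0.10 ± 0.13 (adjusted p = 0.663). That of bHLH115 was -0.06 ± 0.12 (adjusted p = 0.765), with overlapping groups. For bHLH104 it was -0.32 ± 0.15 (adjusted p = 0.158), also with overlap. For bHLH34 the intensities were 196.5, 203.0 and 178.2 in the mock and 161.0, 138.0 and 127.0 in the scutellarin arrays. As with PYE, all its scutellarin arrays were the lower ones, but its difference of -0.44 ± 0.20 did not pass (adjusted p = 0.142). Their partner bHLH121 had -0.41 ± 0.23 (adjusted p = 0.252), and scutellarin replicate 2 lay within its mock range.

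AT1G74770 and AT1G18910 were listed as relatives of the iron-sensing E3 ubiquitin ligase BRUTUS, which limits the iron response. AT1G74770 had intensities of 68.0, 86.0 and 84.3 in the mock and 133.5, 182.9 and 128.0 in the scutellarin arrays. It rose by 0.89 ± 0.25 (adjusted p = 0.0288), opposite in sign to PYE. The call was lost without any 1 array except scutellarin replicate 1 (adjusted p = 0.0507 to 0.110) and with no filter on low values (0.0703). A second probe set of the same gene lay between 1.25 and 19.6 on all arrays, below the filter, and its groups overlapped. AT1G18910 had 115.1, 142.3 and 101.0 in the mock and 143.1, 154.2 and 174.5 in the scutellarin arrays. Its arrays did not overlap either, and its difference of 0.41 ± 0.23 did not pass (adjusted p = 0.236).

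A pair of listed regulators lay below the filter. BHLH101, one of the bHLH factors that are strongly induced by iron shortage and act with the uptake regulator FIT, had 20.9, 3.13 and 15.1 in the mock and 93.8, 72.7 and 69.5 in the scutellarin arrays. All scutellarin arrays were higher. In the limma fit with no filter, over 22746 probe sets, of which 6.9% rose, BHLH101 rose by 2.97 ± 0.74 (adjusted p = 0.0232). Since the mock arrays were close to the lowest value of the scale, the size is uncertain: with 32 added before log2 the difference was 1.31 (adjusted p = 0.00493), and without mock replicate 2 it was 2.13. Without scutellarin replicate 1, 2 or 3 the call was lost (adjusted p = 0.0851, 0.0651 and 0.0742). AT1G47400, listed as a short peptide that signals iron shortage, had 22.6, 35.1 and 28.3 in the mock and 10.6, 47.7 and 57.7 in the scutellarin arrays. These overlapped, and the fit with no filter gave 0.12 ± 0.71 (adjusted p = 0.941).

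The kept genes of coumarin synthesis and export had positive differences beside AT3G13610, but of these only PYK10 passed the test. Of the 11 listed, 6 had a named probe set and 4 passed the filter. Besides AT3G13610, 1 of 3 rose and 2 missed the threshold, where 10.3% of all kept probe sets rose. The median log2 difference of the 3 was 0.44, beside -0.04 over all kept probe sets. PYK10 encodes a beta-glucosidase abundant in roots, which can split coumarin glucosides. It is also listed as a root marker and is counted in both lists. PYK10 rose from 5912, 6011 and 5349 in the mock to 9663, 12583 and 12136 in the scutellarin arrays, by 0.99 ± 0.13 (adjusted p = 0.000230). AT1G28680, listed as the enzyme that closes the coumarin ring, had 423.1, 410.5 and 499.4 in the mock and 654.1, 535.4 and 603.4 in the scutellarin arrays. Its groups did not overlap, and its difference of 0.43 ± 0.15 did not pass (adjusted p = 0.0699). BGLU42, a beta-glucosidase tied to coumarin release, had 0.44 ± 0.27 (adjusted p = 0.298), with overlapping groups.

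The coumarin genes below the filter were both dioxygenases related to AT3G13610. AT1G55290 (F6'H2), its close relative with the same enzyme activity, had 11.1, 6.2 and 19.6 in the mock and 41.1, 36.7 and 62.4 in the scutellarin arrays. Every scutellarin array was higher. The difference in the fit with no filter was 2.04 ± 0.67 and did not pass (adjusted p = 0.0727), while with 32 added before log2 it was 0.83 and passed (adjusted p = 0.0332). That was the only 1 of 7 alternatives that passed. Without any 1 array it did not pass, with an adjusted p of up to 0.238. AT3G12900, listed as the scopoletin 8-hydroxylase that makes fraxetin in iron-deficient roots, stayed between 5.32 and 13.8 in the mock and between 4.44 and 11.7 in the scutellarin arrays. The groups overlapped, at -0.10 ± 0.89 (adjusted p = 0.963). These intensities are low, and without detection calls they cannot be told from background.

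**Figure D3:**
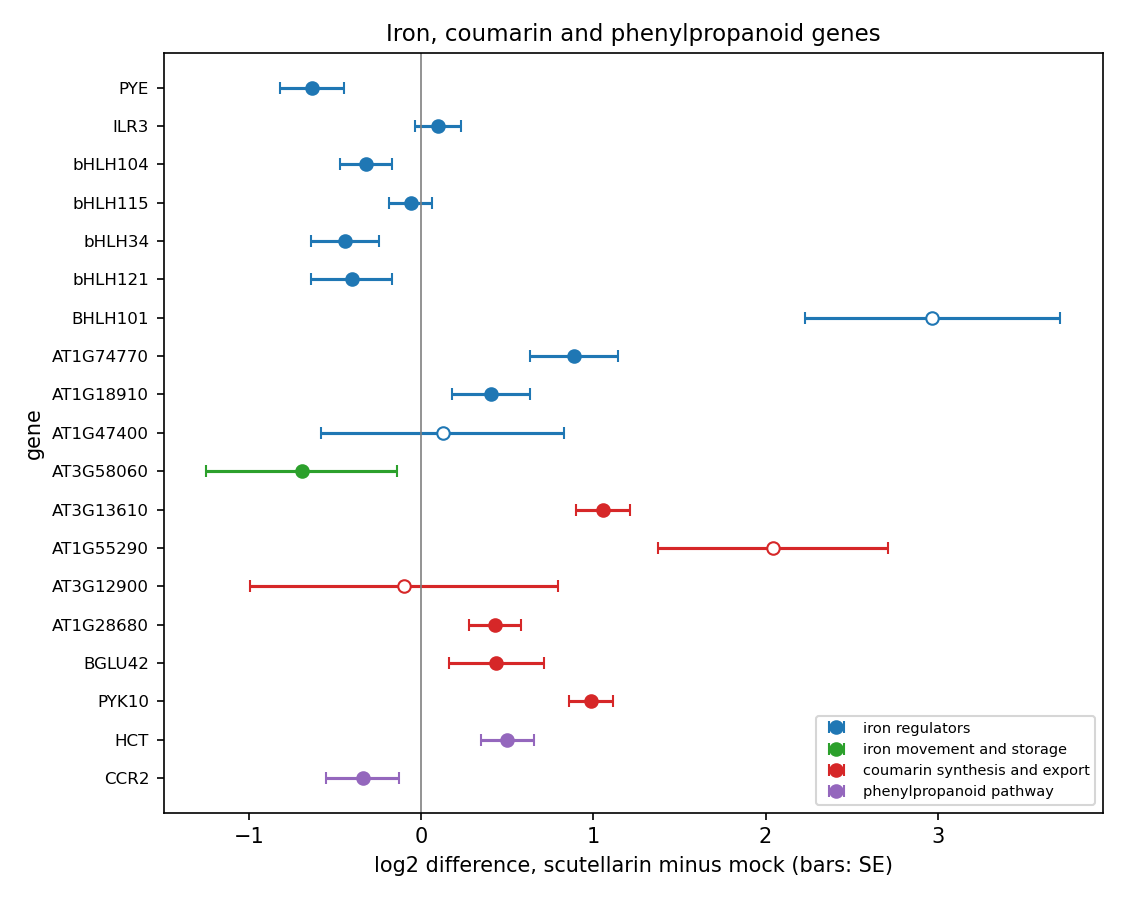
Log2 difference (scutellarin minus mock, bars show the SE) of the named genes of the iron, coumarin and phenylpropanoid lists, with colours for the lists. Filled points come from the fit over 15923 probe sets and open points, for genes below the filter, from the fit with no filter; PYE lies at -0.64, while AT3G13610 lies at 1.06 and PYK10 at 0.99.

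The remaining iron and phenylpropanoid genes were sparsely covered. None of the 13 listed genes of iron uptake and reduction had a named probe set, and they were not analysed here. Of 25 genes of iron movement and storage only AT3G58060, listed as a vacuolar metal transporter, was named. It had a difference of -0.70 ± 0.55 (adjusted p = 0.417), with overlapping groups. Of 19 phenylpropanoid genes 2 were named. HCT, which makes hydroxycinnamoyl esters upstream of feruloyl-CoA, had 1860, 2098 and 2341 in the mock and 3709, 2535 and 2747 in the scutellarin arrays. It rose by 0.50 ± 0.16 (adjusted p = 0.0408), a call lost without any 1 array except scutellarin replicate 2 (adjusted p = 0.0509 to 0.121). It was also lost with median centring (0.0887), no filter (0.0546), no variance trend (0.123) and the replicate number as a block (0.0537). CCR2, a cinnamoyl-CoA reductase that uses feruloyl-CoA for lignin monomers, had -0.34 ± 0.21 (adjusted p = 0.295).

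Among other genes of the bHLH family, 2 of 20 passed the test. Of 97 listed bHLH genes 32 were named and 21 passed the filter. Leaving PYE out, 1 of 20 rose, 1 fell and 18 missed the threshold, where 10.3% of all kept probe sets rose and 9.11% fell. The median of the 20 was -0.20. AT4G01460 fell from 299.9 ± 27.0 to 125.4 ± 19.6 (SD, n = 3), a log2 difference of -1.27 ± 0.20 (adjusted p = 0.000902). AT5G57150 rose from 162.9 ± 25.8 to 278.8 ± 42.4, by 0.78 ± 0.20 (adjusted p = 0.0182), but missed the threshold when mock replicate 1, scutellarin replicate 2 or scutellarin replicate 3 was left out (0.0517 to 0.0642). NAI1, the bHLH factor needed for the endoplasmic reticulum bodies that hold PYK10, had 0.37 ± 0.20 and did not pass (adjusted p = 0.222).

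The dioxygenase relatives of AT3G13610 went both ways. Of 32 listed genes 15 were named and 8 passed the filter. Besides AT3G13610, 2 of 7 rose, 2 fell and 3 missed the threshold, where 10.3% of all kept probe sets rose and 9.11% fell. The median of the 7 was 0.26. AT2G38240 rose from 37.8 ± 27.5 to 123.5 ± 44.9, by 2.04 ± 0.60 (adjusted p = 0.0319). The call was lost with no filter (0.0638), with no variance trend (0.0867) and without mock replicate 2 or scutellarin replicate 1, 2 or 3 (0.0538 to 0.116), and without mock replicate 2 the difference was 1.23. AT1G06640 rose from 446.8 ± 39.2 to 1255 ± 137, by 1.49 ± 0.14 (adjusted p = 2.67e-05). JRG21, a jasmonate-regulated gene of this family, fell from 724.2 ± 139 to 276.7 ± 66.3, a log2 difference of -1.40 ± 0.21 (adjusted p = 0.000693).

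**Figure D4:**
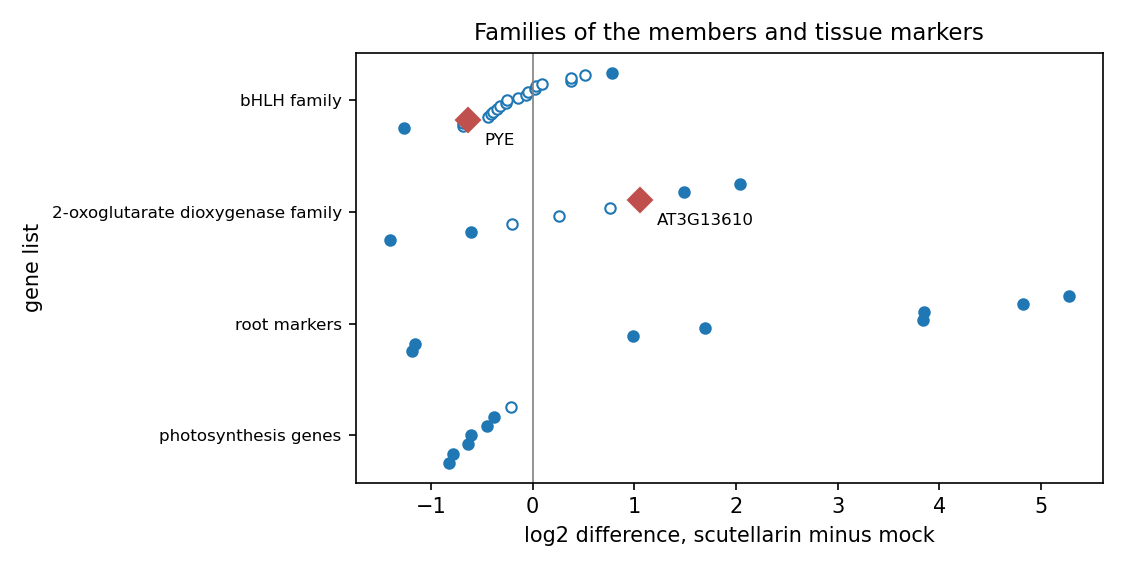
Log2 difference (scutellarin minus mock, horizontal axis) of the kept genes of 4 lists, with 1 point per gene, filled where the adjusted p is under 0.05, and diamonds for PYE and AT3G13610, for which no test is given. PYE lies at -0.64 among 20 other bHLH genes with a median of -0.20, and AT3G13610 at 1.06 among 7 other dioxygenases, which lie between -1.40 and 2.04.

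Root and leaf transcripts also differed between the groups. All 8 named root markers of the 17 listed passed the filter: 6 rose, 2 fell and all 8 had groups that did not overlap. Over all kept probe sets 10.3% rose, 9.11% fell and in 37.1% the groups did not overlap. The median log2 difference of the 8 markers was 2.77, and they ranged from -1.19 to 5.27. EXPA7 and EXPA18, the root hair expansins, lay below the cutoff of the filter (a geometric mean intensity of 34.8) on every mock array and passed it through their scutellarin arrays; without that pair, 4 of 6 markers rose and 2 fell, and the median difference was 1.34. The summed intensity of all 8 was 8815 to 10229 in the mock and 19240 to 22369 in the scutellarin arrays, and no value was at the floor. Much of this sum was PYK10, which alone had 5349 to 6011 in the mock and 9663 to 12583 in the scutellarin arrays. EXPA7 rose by 5.27 ± 0.72 and EXPA18 by 4.82 ± 0.40, sizes that became 2.79 and 3.29 with 32 added before log2. The peroxidase gene AT5G17820 rose by 3.85 ± 0.15, and by 3.62 with 32 added. The difference of AT3G13610 (1.06) lay below the median of the 8 root markers (2.77, or 1.34 without EXPA7 and EXPA18). It was near that of the root marker PYK10 (0.99) and below that of the endodermis marker AT3G22620 (1.70). The cortex markers AT1G62500 and AT1G09750 had -1.16 and -1.19. Where 9.11% of all kept probe sets fell, 6 of the 7 named photosynthesis genes, out of 31 listed, fell and 1 missed the threshold. Their median was -0.61, beside -0.64 for PYE. The antenna protein gene LHCB4.3 changed by -0.82 ± 0.17, the Calvin cycle gene SBPASE by -0.78 ± 0.14 and the photosystem I gene PSAN by -0.64 ± 0.11. The number called depended on the processing. With no variance trend 3 fell and with no filter 4 fell, at the same log2 differences. Leaving out 1 array gave as few as 4, but LHCB4.3, SBPASE and PSAN fell under all 15 alternatives. After quantile normalization 4 fell, and the 7 lay between -0.82 (LHCB4.3) and 0.03 (LHCB4.1), while PYE was at -0.66. The summed intensity of all 7 was 116433 to 124916 in the mock and 81988 to 99619 in the scutellarin arrays. In whole seedlings a change in the share of a cell type and a change in RNA per cell cannot be told apart, and the part of either list in the levels of PYE and AT3G13610 was not tested.

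The genes with the most similar patterns were found over the 6 arrays among 8660 other named probe sets, as those with the smallest root mean square distance between log2 profiles centred on their means. For PYE they were AT3G62820 (distance 0.05), AT3G13480 (0.06), AT1G50020 (0.08), AT3G16530 (0.08) and AT2G28240 (0.09), with log2 differences between -0.80 and -0.57. AT3G62820 had 625.6, 798.0 and 761.4 in the mock and 508.4, 440.2 and 490.8 in the scutellarin arrays, so mock replicate 2 was its highest and scutellarin replicate 2 its lowest array, as for PYE. For AT3G13610 they were AT5G39970 (0.07), AT3G14280 (0.10), AT3G52460 (0.11), AT1G55760 (0.13) and AT1G53640 (0.13), with differences between 1.02 and 1.24. AT5G39970 had 59.8, 69.4 and 52.2 in the mock and 123.2, 107.8 and 149.5 in the scutellarin arrays, with mock replicate 3 lowest and scutellarin replicate 3 highest, as for AT3G13610. None of these 10 genes was in the iron or coumarin lists. Only 7 other iron regulators, 3 other coumarin genes and 1 iron movement gene were kept and could have been found. With so few among 8660, their absence says little. The genes were picked by their distance over these same 6 arrays, so a similar order of replicates is in part a result of the choice. The difference between the groups makes up most of each profile.

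**Figure D5:**
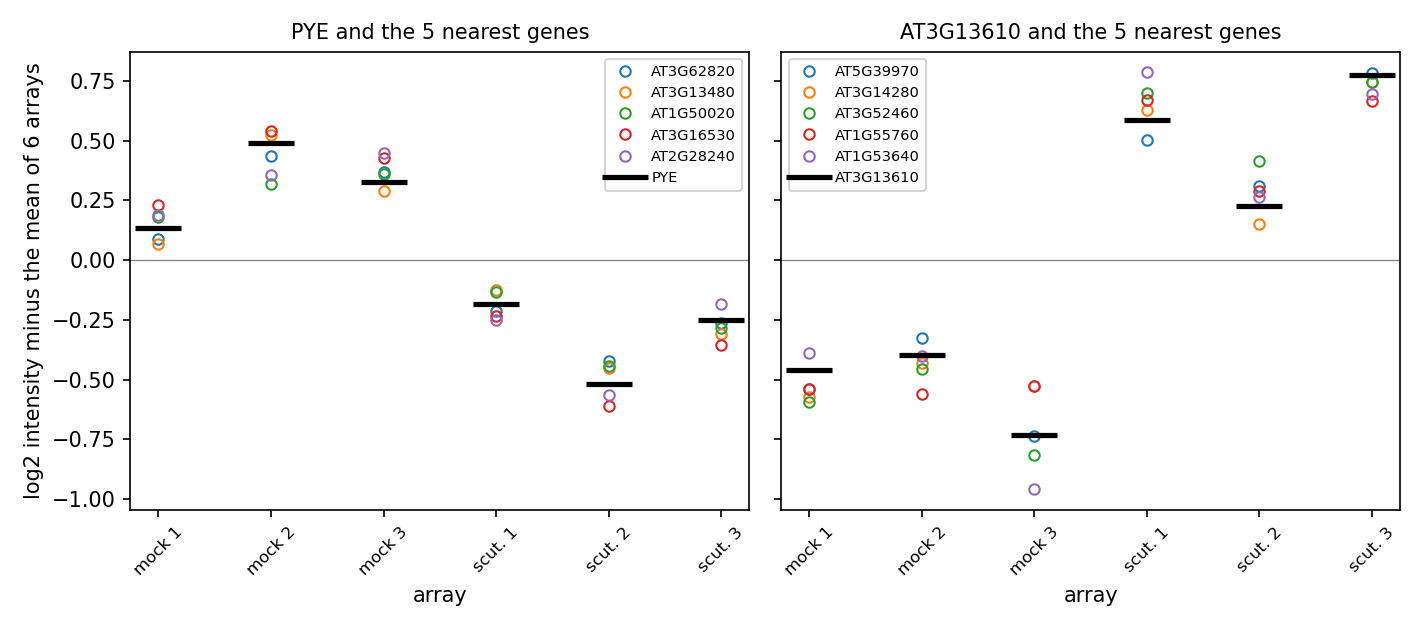
Log2 intensity minus the mean of the 6 arrays (vertical axis) on each array (horizontal axis) for PYE and for AT3G13610 (black bars) and for the 5 named genes nearest to each (open circles). The nearest genes lie within a root mean square distance of 0.05 to 0.09 of PYE and of 0.07 to 0.13 of AT3G13610.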

How the data were processed

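The authors deposited 1 intensity per probe set and array, on a linear scale, made with MAS5 per the submitters' processing notes; the sources used here do not give its version or settings. After trimming 2% of the values at each end, array means were 493.6 to 494.9, so the authors' intensities already shared a level. Of 22746 probe sets, 13513 named 1 gene in the platform annotation and 13436 of these were found by gene ID in the RefSeq gene table (TAIR10.1). Roles of loci that have no symbol there come from general knowledge of the locus. Intensities were put on a log2 scale, the 30% of probe sets with the lowest means were dropped, and the groups were compared in limma 3.58.1 (R 4.3.3) with a variance trend and without a block; the fit was tested on simulated data. The probe set with the highest mean stood for a gene that had several. Having 3 arrays per group limits the precision, and p-values reflect the spread between the experiments that the labels call independent.

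PYE, AT3G13610 and all gene lists were chosen with earlier results of these data known; the bHLH and dioxygenase lists were completed once it was known which genes had names. The text names every kept gene of the iron and coumarin lists, up to 3 changed genes without overlap in each other list, and the 5 nearest profiles of each gene. CCR2, NAI1 and the genes below the filter were named after their values were seen, as were the root markers AT3G22620, AT1G62500 and AT1G09750. The differences of PYE, AT3G13610 and the kept list genes and the counts of changed genes, which leave PYE and AT3G13610 out of their lists, were recomputed after quantile normalization or median centring, with no filter or a filter of 50%, with 32 added to intensities, with a flat or a robust variance prior, with the replicate block, without each array, and without probe sets prone to cross-hybridisation. Figures were drawn with matplotlib 3.10.9.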

Additional observations from a re-analysis of the deposited data

How the results depend on the processing

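The log2 differences of PYE and AT3G13610 moved by less than the spread between replicates under all 15 alternatives. The labels tie no replicate number to a shared experiment, and deviations from the group means correlated at -0.04, -0.09 and 0.11 between arrays of equal number, so these were not treated as pairs. With the replicate block the log2 difference of PYE was -0.64 and that of AT3G13610 was 1.06, and 0 phenylpropanoid genes changed. Changed probe sets numbered 3094, and without 1 array between 2009 and 2833, the lowest without mock replicate 2. Counts in lists leave out PYE and AT3G13610. The count of 1 changed iron regulator, AT1G74770, became 0 with the lowest 50% left out, because its probe set was dropped and not tested. Leaving out 1 array gave 0 to 1. With no filter the count was also 1, but of another gene: BHLH101 passed and AT1G74770 did not. The 1 phenylpropanoid gene became 0 with median centring, no filter or no variance trend; leaving out 1 array gave 0 to 1. With no variance trend, 3 photosynthesis genes instead of 6 and 2 dioxygenase genes instead of 4 were called. Quantile normalization or no filter gave 4 photosynthesis genes, and leaving out 1 array gave as few as 4. Changed bHLH genes lay between 1 and 2 without 1 array. Over 49 other genes and their alternatives, 677 of 720 values kept their side of the threshold, 43 calls were lost and 0 were gained or reversed. The fits with no filter for BHLH101 and AT1G55290 with 32 added, or without 1 array, and the count of root markers without EXPA7 and EXPA18 were chosen after seeing the data. The gene names cover 10 of 20 iron regulators and none of the uptake genes, and genes near the floor have uncertain fold sizes.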
